A study of Homo sapiens with 9 samples.

Results

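The mitoribosomal protein genes described here are the gene symbols made of MRPL or MRPS, a number and at most a letter from A to C. The count tables held 78 of them among 61155 symbols, 49 named for the large subunit (MRPL) and 29 for the small subunit (MRPS). Of these, 77 had enough counts to be tested, among 17759 genes tested in all. The cells were MDA-MB-231, an established human breast cancer line labelled basal-like. The reference cells, called WT, carried intact FBXL12 and had been transduced with a scrambled guide RNA, and KO1 and KO2 are separate clones with FBXL12 knocked out. Each of the 3 groups gave 3 libraries of total RNA, with no drug named in the labels. FBXL12 encodes an F-box protein, the substrate-binding part of an SCF ubiquitin ligase. Each knockout group is a single clone, and no source used here says whether the reference cells were cloned, so an effect of the knockout and a difference between clones cannot be told apart.

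Mitochondria keep their own ribosome, which translates the few proteins encoded in mitochondrial DNA, all of them parts of the respiratory chain and ATP synthase. Its ribosomal RNAs come from mitochondrial DNA, while every one of its proteins is encoded in the nucleus, made in the cytosol and imported. The large subunit holds the peptidyl transferase centre and the exit tunnel, and the small subunit holds the messenger RNA and the decoding site. Many of the proteins descend from bacterial ribosomal proteins and others are found only in mitochondria.

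Library totals ran from 52427841 to 97243363 counts, and the RNA integrity number was 10 in each sample, per the labels. Whether the libraries of a group stand for separate cultures is not stated, and a p-value then reflects only how these libraries vary, possibly for technical reasons. Levels are given as CPM, counts scaled to the library total. FBXL12 itself was at 22.2, 23.3 and 21.3 CPM in the WT libraries, and the KO1 libraries held 9.56, 9.95 and 9.4 CPM and the KO2 libraries 6.14, 6.36 and 5.33 CPM. All 6 markers expected of the line were present, the hormone receptor genes ESR1 and PGR and the epithelial cadherin CDH1 had group means under 0.1 CPM, and ERBB2 was at 61.3 to 75.5 CPM. The summed markers of leukocytes and of endothelium stayed near or under 1 CPM in every library.

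Mitoribosomal protein genes were expressed at widely different levels in WT cells. Per kilobase of the principal transcript, the median level was 35.5 CPM per kb over the 78 genes, 43.5 CPM per kb over the large subunit and 23.2 CPM per kb over the small subunit. MRPL51, MRPL13 and MRPL14 were highest in the large subunit, at 114, 106 and 102 CPM per kb. MRPS7, which binds the small subunit's ribosomal RNA, MRPS10 and the pentatricopeptide-repeat protein MRPS27 were highest in the small subunit, at 89.1, 80.9 and 80.3 CPM per kb. Replicates lay close together, with a median coefficient of variation over the genes of 4.23% in WT, 5.87% in KO1 and 4.2% in KO2.

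Most of the lowest levels were found where the annotation places another gene's exons on the same strand. MRPL53, a protein of the large subunit's stalk region, had 0 counts in all 9 libraries, which allows up to 3 counts, or 0.0309 CPM in the deepest library and 0.0572 CPM in the shallowest. In GENCODE 29, 52.3% of its principal transcript lies under exons of CCDC142. Such overlap covered at least 30% of the principal transcript of 8 members, MRPL12, MRPL38, MRPL46, MRPL53, MRPS17, MRPS24, MRPS28 and MRPS6. Their WT levels ran from 0 to 30.9 CPM with a median of 2.62 CPM, and the other 70 members had a median of 52.4 CPM. MRPL45 was at 1.4 CPM with no such overlap, and it held 790 counts over all libraries against 2843 for its annotated pseudogenes. How reads that fit more than 1 gene were counted is not stated, so these low values are uncertain as levels of the genes. Exons of another gene on the opposite strand cover at least 30% of the principal transcript of MRPL4, MRPL9, MRPS18A and MRPS18C, and since the strand setting is not stated, their values may hold reads of that gene. MRPL12, MRPL38, MRPL45, MRPL46 and MRPS24 were singled out here after their values were seen.

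In KO1, mitoribosomal protein genes were mostly lower than in WT, by a modest amount. Of the 77 tested, 41 fell and 3 rose, at an adjusted p under 0.05 in edgeR's quasi-likelihood test, and 33 were not called. Over all genes tested, 34.8% were called, 16.8% lower and 18.0% higher, so the members' share of 53.2% called lower stood above the background and their share called higher stood below it. The median log2 change of the members was -0.18, against -0.01 over all genes tested. Members together took 0.468% ± 0.00976 (SD, n = 3) of all counts in WT, and in KO1 0.413% ± 0.0103 (SD, n = 3). The 3 KO1 libraries, at 0.408%, 0.425% and 0.407%, all lay below the 3 WT libraries, at 0.475%, 0.471% and 0.457%.

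MRPL2, the homologue of a universally conserved protein next to the peptidyl transferase centre, was among the genes that fell most in KO1. It was at 68, 72.6 and 66.8 CPM in WT and at 42.1, 36 and 37.2 CPM in KO1. The groups did not overlap, and the log2 change was -0.85 ± 0.063 (SE, adjusted p = 1.17e-07, edgeR). MRPL14, at the interface with the small subunit, was at 100, 104 and 89.3 CPM in WT and at 64.9, 62.8 and 60.8 CPM in KO1, a log2 change of -0.64 ± 0.064 (SE). MRPL4, another conserved large-subunit protein, was at 56.1, 70.2 and 63.4 CPM in WT and at 41.7, 29.9 and 37.5 CPM in KO1, a log2 change of -0.80 ± 0.14 (SE). In these genes every KO1 library lay below every WT library.

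MRPL41 had a log2 change of -0.97 ± 0.2 (SE) in KO1, which became -0.38 with the trend of log2 change on GC content removed, where MRPL2 was at -0.75 and MRPL22 at -0.70. It was at 9.43, 13.9 and 10.6 CPM in WT and at 6.69, 5 and 5.59 CPM in KO1. MRPS17, a small-subunit protein that contacts ribosomal RNA and whose transcript is overlapped by NIPSNAP2, was at 12.4, 12.6 and 12.4 CPM in WT and at 8.32, 7.5 and 7.91 CPM in KO1, a log2 change of -0.65 ± 0.074 (SE). MRPL12, the stalk protein that recruits translation factors, was outside the rule for named genes because of its low level. It held 88, 110 and 80 counts in WT and 61, 24 and 49 in KO1, with a log2 change of -1.25 ± 0.43 (SE) and an adjusted p of 0.0454 in edgeR.

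The 3 members that rose in KO1 were MRPL33, MRPS33 and MRPL19. MRPS33, a protein of the small subunit, was at 21.1, 20 and 19.7 CPM in WT and at 22.7, 26.6 and 23.2 CPM in KO1, a log2 change of 0.25 ± 0.067 (SE, adjusted p = 0.00828, edgeR). MRPL33 had a log2 change of 0.26 ± 0.084 (SE, adjusted p = 0.0321, edgeR), from 51.9 ± 1.83 to 62 ± 9.28 CPM (SD, n = 3). The call of MRPL33 was lost without KO1 replicate 2, whose 72.3 CPM was its highest value (log2 change 0.14, adjusted p = 0.0576, edgeR), without WT replicate 2 (adjusted p = 0.0861) or 3 (adjusted p = 0.091), without KO2 replicate 3 (adjusted p = 0.0502), with the GC trend removed (adjusted p = 0.0621) and with a fit of KO1 and WT alone (adjusted p = 0.0613). MRPL19 went from 90.5 ± 2.21 to 103 ± 6.62 CPM (SD, n = 3), a log2 change of 0.19 ± 0.05 (SE).

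In KO2 the members moved in both directions and their typical change was small. Of 77 tested, 28 fell, 7 rose and 42 were not called, while of all tested genes 49.4% were called, 24.7% lower and 24.7% higher. The members' share called lower was 36.4% and their share called higher was 9.09%. Their median log2 change was -0.05, against -0.01 over all genes tested. With upper-quartile scaling the split of the members was 12 higher and 26 lower. The shares of all tested genes under that scaling are not given here, so this split has no background beside it. The members' share of all counts was 0.436% ± 0.0104 (SD, n = 3), with KO2 libraries at 0.443%, 0.442% and 0.424%, all below the WT range.

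MRPL4 fell further in KO2 than any other member whose mean log2 CPM reached 2, to 26.6, 28.7 and 22.6 CPM. Its log2 change from WT was -1.28 ± 0.144 (SE, adjusted p = 0.000111, edgeR), and its mean stood at 41.0% of that in WT. MRPL30, a protein with a bacterial homologue, was at 99.2, 94.2 and 96.7 CPM in WT and at 54.6, 55.9 and 56.2 CPM in KO2, a log2 change of -0.80 ± 0.045 (SE). MRPS25, mutated in a mitochondrial encephalomyopathy, was at 42.4, 42.9 and 41.2 CPM in WT and at 26.1, 28.8 and 25.4 CPM in KO2, a log2 change of -0.66 ± 0.056 (SE). Neither MRPL30 nor MRPS25 overlapped between WT and KO2.

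MRPL55 and MRPL41 also fell in KO2, with log2 changes of -0.70 ± 0.134 (SE) and -0.70 ± 0.2 (SE). For MRPL41, whose exons are 71.9% G and C, the change from WT in KO2 turned to 0.07 (adjusted p = 0.5, edgeR) with the GC trend removed. The 7 members that rose in KO2 included MRPL44, MRPS33, MRPL50, MRPL9 and MRPL33. MRPL44, a large-subunit protein with a ribonuclease III-like fold, was at 44.5, 43.5 and 41.6 CPM in WT and at 57.7, 58.4 and 59.5 CPM in KO2, a log2 change of 0.44 ± 0.048 (SE, adjusted p = 2.29e-06, edgeR). MRPS33 reached 27.6, 26 and 27.3 CPM in KO2, a log2 change of 0.41 ± 0.067 (SE). MRPL50 and MRPL9 changed by 0.33 ± 0.073 (SE) and 0.31 ± 0.046 (SE), and MRPL33 by 0.29 ± 0.084 (SE). The KO2 call of MRPL33 was lost without KO2 replicate 1 (adjusted p = 0.0503, edgeR), WT replicate 2 (0.0507) or WT replicate 3 (0.0563).

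Both clones were compared with the same WT libraries, so their changes are not independent. MRPL44 was called lower in KO1, at 35.6, 36.2 and 34.1 CPM, and higher in KO2. For the mean of both clones against WT, 37 members fell and 4 rose, against 40.8% of all tested genes called, 20.4% lower and 20.4% higher.

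**Figure D1:**
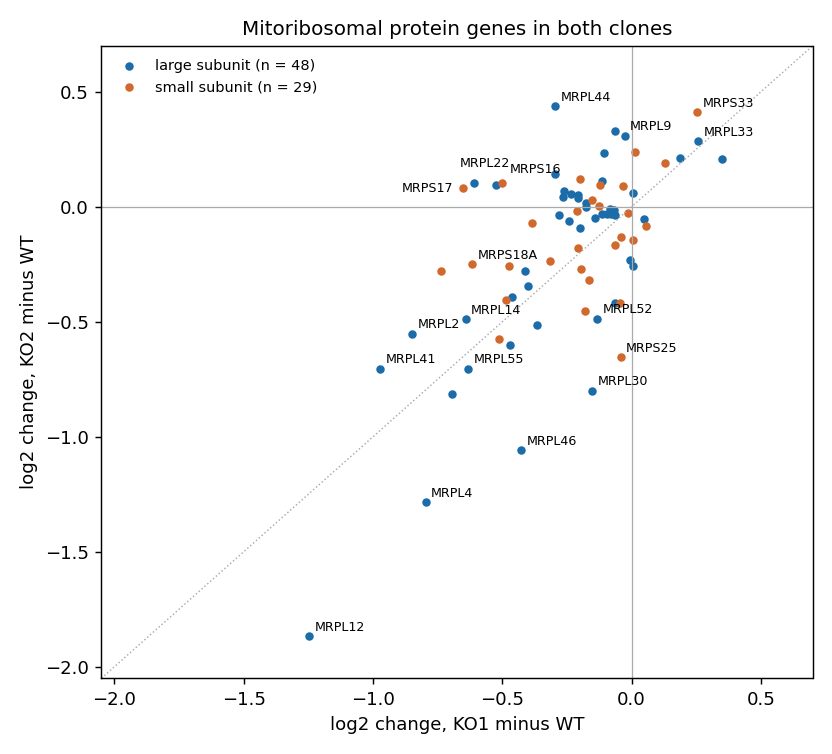
Log2 change of each of the 77 tested genes in KO1 (horizontal axis) and KO2 (vertical axis), each against the same WT libraries; the dotted line marks equal changes. MRPL22, MRPS17 and MRPS16 lie low in KO1 and near 0.1 in KO2, MRPS25 lies at -0.66 in KO2 and near 0 in KO1, and MRPL44 lies on opposite sides of 0.

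The clones were also tested against each other. In KO1 minus KO2, 24 members were lower and 13 higher, against 48.9% of all tested genes called, 24.9% lower and 23.9% higher. Upper-quartile scaling gave 30 members lower and 10 higher, with no share of all tested genes given here for that scaling. Removal of the GC trend gave 36 members lower (46.8%) and 13 higher (16.9%), against 30.2% and 26.6% of all tested genes. MRPL22, which lines the exit tunnel for the new protein chain, was at 31.7, 37 and 32.5 CPM in KO1 and at 56.1, 55.4 and 54.2 CPM in KO2, beside 53.9, 50.1 and 50.2 CPM in WT. The difference between the clones was -0.71 on the log2 scale (adjusted p = 8.68e-08, edgeR). MRPS16, mutated in a severe neonatal disorder of oxidative phosphorylation, was at 87.6, 88.9 and 85.3 CPM in KO1 and at 132, 135 and 130 CPM in KO2, beside 122, 128 and 120 CPM in WT, and its difference between clones was -0.60. The clones did not overlap in either gene. In the same contrast MRPS17 and MRPL44 were lower in KO1 by log2 differences of -0.74 and -0.73, and MRPL32, whose maturation in the matrix needs a protease, by -0.44. MRPL30, MRPS25, MRPL4, MRPS5 and MRPL13 were higher in KO1 than in KO2 by 0.65, 0.61, 0.49, 0.38 and 0.36. For MRPL4 this call was lost without KO1 replicate 1 (log2 difference 0.39, adjusted p = 0.0581, edgeR), KO1 replicate 3 (0.48, 0.0529) or KO2 replicate 3 (0.40, 0.0695).

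The subunits differed little in KO1, and in KO2 the large subunit stood slightly above the small. In KO1, 28 of 48 tested large-subunit genes fell (58.3%) and 2 rose (4.17%), with a median log2 change of -0.20. Of 29 small-subunit genes, 13 fell (44.8%) and 1 rose (3.45%), with a median of -0.165. Over all tested genes, 16.8% fell and 18.0% rose in KO1. In KO2, 17 large-subunit genes fell (35.4%) and 6 rose (12.5%), with a median of -0.03. Of the small-subunit genes, 11 fell (37.9%) and 1 rose (3.45%) in KO2, with a median of -0.13. Over all tested genes, 24.7% fell and 24.7% rose in KO2. The difference of the medians of fitted changes, large minus small, was -0.039 in KO1, 0.098 in KO2 and 0.0 in KO1 minus KO2. The last takes each subunit's median over the differences between the clones, gene by gene, and medians of differences need not equal differences of medians. A second measure took, in each library, the medians of the log2 levels relative to the WT means. On it, large minus small was -0.004, 0.021 and -0.02 in the WT libraries, and the KO1 libraries gave -0.04, -0.038 and -0.058 and the KO2 libraries 0.099, 0.092 and 0.08, with an SD over libraries of a group of 0.015. The clones thus lay apart on the measure per library and not on the median of their fitted difference. The summed CPM of the large subunit over that of the small was 1.84 to 1.87 in WT, with KO1 libraries at 1.83 to 1.85 and KO2 libraries at 1.89 to 1.92. All 3 KO2 libraries lay above the other libraries on the measure per library and on the ratio of sums. The KO2 difference was 0.05 with the GC trend removed, and 0.073 with subunits taken from ribosome structures.

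By structure, MRPS18A and MRPS30 belong to the large subunit in spite of their names, and MRPS36 is held to be a subunit of the 2-oxoglutarate dehydrogenase complex. The mean level of MRPS18A was 22.3 ± 0.701 CPM over WT libraries, 14.6 ± 1.02 over those of KO1 and 18.8 ± 0.0794 over those of KO2 (SD, n = 3), and its log2 change was -0.62 in KO1 and -0.25 for KO2. With the GC trend removed, its KO2 change was -0.08 (adjusted p = 0.227, edgeR). Its paralogues MRPS18B and MRPS18C were not called in either clone, with log2 changes of 0.02 ± 0.664 (SE) and -0.15 ± 0.085 (SE) in KO1. With the GC trend removed, MRPS18C was called lower in KO1 (-0.25, adjusted p = 0.0037, edgeR) and not in KO2. MRPS30 had means of 60.1 (WT), 60.3 (KO1) and 54.4 CPM (KO2), and its KO2 change of -0.14 (adjusted p = 0.0278, edgeR) was lost when any of WT replicates 1, 2 and 3 or KO2 replicates 2 and 3 was left out (adjusted p from 0.0619 to 0.0787) and with upper-quartile scaling (adjusted p = 0.103). MRPS36 was at 29.8 ± 3.65, 32.5 ± 3.26 and 34 ± 0.557 CPM (SD, n = 3) and was not called. MRPL58, a peptidyl-tRNA hydrolase that rescues stalled mitoribosomes, was at 36.9, 32 and 37.9 CPM, with a log2 change of -0.21 in KO1 (adjusted p = 0.0109, edgeR). That call was lost without KO1 replicate 1 (adjusted p = 0.0506), KO1 replicate 3 (0.0705) or WT replicate 1 (0.102).

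Members that are neighbours on a chromosome tended to move together with the genes around them. On GRCh38 chromosome 6, the minus-strand genes MRPS10 (42206801 to 42217865), MRPL2 (43054029 to 43059806), MRPS18A (43671303 to 43687791) and MRPL14 (44113454 to 44127457) all fell in both clones, MRPS18A in KO2 only as long as the GC trend was kept. Their log2 changes ran from -0.31 to -0.85 in KO1 and from -0.24 to -0.55 in KO2. For each member, the nearest tested protein-coding genes that are not members were taken, each with a mean log2 CPM no lower than 2. Up to 10 were taken on each side, 20 in all for most members. MRPL41 had 14, MRPL28 and MRPL39 had 18, and MRPL36 had 19. Around the 4 chromosome 6 members the neighbours' median log2 change was -0.47, -0.49, -0.32 and -0.32 in KO1 and -0.38, -0.50, -0.33 and -0.33 in KO2.

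Most of the other stretches described here moved in a single clone, judged by their neighbour medians, and those on chromosome 19 moved in both. On chromosome 2, MRPL35, MRPS5 and MRPL30 fell in KO2 by log2 changes of -0.26, -0.42 and -0.80, beside neighbour medians of -0.46, -0.55 and -0.60. Farther along the same chromosome MRPL44 (223957404 to 223967714, plus strand) rose in KO2 beside a neighbour median of 0.55. MRPS25 on chromosome 3 (15042460 to 15065335, minus strand) had a neighbour median of -0.38 in KO2 and 0.20 in KO1. MRPL46 and MRPS11 are a divergent pair on chromosome 15 with 33 bases between them, and both fell in KO2, by -1.06 and -0.45, beside a neighbour median of -0.51. MRPL30, MRPL44, MRPL46 and MRPS11 were also called lower in KO1, by -0.15, -0.29, -0.43 and -0.18. Their neighbour medians in KO1 were 0.015, -0.033, 0.14 and 0.14. MRPL22 on chromosome 5 had a neighbour median of -0.45 in KO1, where it fell, and of 0.07 in KO2. MRPL4 on chromosome 19 lies 424084 bases from FBXL12, the knocked-out gene, and its neighbours had medians of -0.48 in KO1 and -0.93 in KO2. MRPL34, farther along chromosome 19, fell by -0.47 in KO1 and -0.60 in KO2, beside neighbour medians of -0.59 and -0.60. MRPL34, MRPL35, MRPL46 and MRPS11 are outside the rule for named genes and were chosen after their values were seen.

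Over the 72 members whose mean log2 CPM reached 2, the change of a member and the median of its neighbours had a Pearson correlation of 0.61 in KO1 and 0.75 in KO2, and of 0.57 and 0.71 with the GC trend removed. These are descriptions over genes measured in the same libraries, and nearby members share neighbours. The cause of these shared shifts was not tested.

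The members were also counted by how the genes around them moved. Stretches were set apart where the neighbours' median, with the GC trend removed, was at or beyond 0.25 in either direction. In KO1, 8 members lay in low stretches and 7 of them fell, while the other 69 lay between the limits and 34 of those fell, which is 49.3%, with a median of -0.165. Of the other protein-coding genes in KO1, 64.6% of the 745 in low stretches fell, and between the limits 16.8% fell, or 18.4% of those whose mean log2 CPM reached 4. In KO2, 13 members lay in low stretches and all 13 fell, 5 lay in high stretches, of which 2 rose, and 59 lay between the limits. Of those 59 members 15 fell, or 25.4%, and 5 rose, with a median of -0.03, and 23.9% of the other protein-coding genes between the limits fell, or 26.8% of those whose mean log2 CPM reached 4. Of the 1457 other genes in low stretches in KO2, 73.1% fell, so low stretches held more genes in KO2 than in KO1 among other genes too, and whether the members differ from them in this was not tested. Between the limits, members fell at a share above that of other genes in KO1 and close to it in KO2.

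Some members moved apart from their neighbours. With the GC trend removed, MRPS16 changed by -0.53 in KO1 beside a neighbour median of -0.17, and MRPS17 by -0.67 beside -0.16. MRPL55 changed by -0.42 in KO2 beside -0.08. MRPL9 and MRPS33 changed by 0.33 and 0.36 in KO2 beside neighbour medians of 0.04 and 0.05. MRPL44 and MRPL50, in contrast, rose in KO2 along with their neighbours, at 0.39 beside 0.55 and at 0.27 beside 0.46.

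The promoters of 3 of the chromosome 6 members are shown because these genes fell together. For MRPL2, the remaining member of that stretch, no RefSeq promoter was matched. Beside them are the promoters of MRPL42 and MRPS30, which were not called in KO1. Neither is an unchanged gene: MRPL42 was at a log2 change of -0.005 in KO1 but fell in KO2 by -0.23 (adjusted p = 0.00195, edgeR), and with the GC trend removed it was also called lower in KO1 (-0.11, adjusted p = 0.00429), while the KO2 fall of MRPS30 is given above. Each line is the RefSeq sequence from 130 bases before to 30 bases from the annotated start, on GRCh38.p14, in the direction of the gene. Capitals mark the searched letters, found on either strand: the ETS-type motif CCGGAAG, the YY1-type motif AAGATGGCG and the NRF1-type motif GCGCANGCG.
MRPS10 (chr6:42217832-42217991, minus strand): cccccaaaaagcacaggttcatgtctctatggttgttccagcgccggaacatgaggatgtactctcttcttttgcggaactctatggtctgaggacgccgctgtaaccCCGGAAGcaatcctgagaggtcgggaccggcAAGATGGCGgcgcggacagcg
MRPS18A (chr6:43687762-43687921, minus strand): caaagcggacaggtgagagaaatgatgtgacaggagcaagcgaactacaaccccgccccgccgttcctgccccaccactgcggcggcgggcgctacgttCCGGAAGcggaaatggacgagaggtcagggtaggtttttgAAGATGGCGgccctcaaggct
MRPL14 (chr6:44127279-44127438, minus strand): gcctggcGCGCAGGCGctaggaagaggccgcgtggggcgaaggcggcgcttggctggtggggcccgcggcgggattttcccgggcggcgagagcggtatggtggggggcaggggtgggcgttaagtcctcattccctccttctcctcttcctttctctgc
MRPL42 (chr12:93467384-93467543, plus strand): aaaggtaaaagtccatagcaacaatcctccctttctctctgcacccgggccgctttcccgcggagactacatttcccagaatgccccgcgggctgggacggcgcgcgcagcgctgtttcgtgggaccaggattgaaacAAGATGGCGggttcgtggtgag
MRPS30 (chr5:44808817-44808976, plus strand): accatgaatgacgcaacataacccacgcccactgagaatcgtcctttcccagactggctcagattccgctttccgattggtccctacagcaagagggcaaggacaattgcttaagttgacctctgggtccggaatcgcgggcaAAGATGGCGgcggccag

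The promoters of MRPS10 and MRPS18A held both the ETS-type and the YY1-type letters, MRPL14 held the NRF1-type letters, and MRPL42 and MRPS30 held the YY1-type letters alone. In MRPS10, MRPS18A, MRPL42 and MRPS30 the YY1-type letters, which contain an ATG, lay just inside the annotated start. RefSeq promoters of 250 bases before and 50 bases after the start were matched for 69 members. ETS-type letters were in 29 of these (42.0%), against 10.7% of all 27305 promoters and 18.4% of those of tested genes. YY1-type letters were in 13 (18.8%), against 1.85% and 3.72%, and NRF1-type letters were in 13 (18.8%), against 8.05% and 14.1%. Among members that fell in KO1, 44.7% held ETS-type, 18.4% YY1-type and 23.7% NRF1-type letters, and among the 30 tested members that did not fall, 11 held ETS-type, 6 YY1-type and 4 NRF1-type letters. YY1-type letters were in 8 of the 25 members that fell in KO2 and in 5 of the 43 that did not. In the same 25 and 43 members, ETS-type letters were in 10 and 18, and NRF1-type letters in 3 and 10. The letters were chosen after the data were seen, and the NRF1-type and YY1-type motifs were first searched in a form longer by 1 letter, which can match only the same or fewer promoters. In the longer form, the NRF1-type share of the members was close to that of tested genes. The counts of both motifs depend on that choice, and no order is read from the NRF1-type shares. A match is a description of the letters in these windows and not evidence of binding.

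Most GC-rich members fell in each clone, where GC-rich genes in general were also lower. Of the 15 members whose exons were at least 58% G and C, 14 fell in KO1 with a median log2 change of -0.49, and 12 fell in KO2 with a median of -0.41. Of the 3185 tested genes at or above the same limit, 32.7% fell in KO1 with a median of -0.25, and 39.6% fell in KO2 with a median of -0.25. With the GC trend removed, 12 of the 15 members fell in KO1 with a median of -0.285 and 7 fell in KO2 with a median of -0.085, against 18.3% and 23.8% of those genes. Of the 62 tested members below that limit, 27 fell (43.5%) and 3 rose (4.84%) in KO1, with a median of -0.14. In KO2, 16 of them fell (25.8%) and 7 rose (11.3%), with a median of -0.02. Among all tested genes below the limit, 13.4% fell and 21.1% rose in KO1, and 21.6% fell and 27.2% rose in KO2. Within libraries, the slope of the members' log2 level on GC content, relative to the WT mean and per 10 percentage points, ran from -0.068 to 0.067 in WT, and KO1 libraries lay between -0.329 and -0.095 and KO2 libraries between -0.357 and -0.134. With the trend of all genes removed, 48 members fell (62.3%) and 3 rose in KO1, against 18.0% and 21.5% of all tested genes. In KO2, 26 members fell (33.8%) and 10 rose. Under the same setting, 4446 of all 17759 tested genes fell in KO2 and 5350 (30.1%) rose.

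The mitoribosomal proteins known by other symbols were lower in part. Of 5 such genes, 3 fell in KO1 and 4 in KO2, and none rose, while 16.8% and 24.7% of all tested genes fell. GADD45GIP1, a large-subunit protein, was at 66.4, 84.6 and 67.9 CPM in WT, while KO1 libraries had 48.1, 35.1 and 42.7 CPM and KO2 libraries 33.8, 35.5 and 28.7 CPM, with log2 changes of -0.80 and -1.16. PTCD3, a small-subunit pentatricopeptide-repeat protein, fell in KO2 by -0.60 ± 0.042 (SE) and was at a log2 change of 0.07 in KO1 (adjusted p = 0.216, edgeR). AURKAIP1, of the small subunit, changed by -0.65 in KO1 and -0.39 in KO2, and these values were -0.19 and 0.21 with the GC trend removed.

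Factors that build and serve the mitoribosome were mixed. Over all tested genes, 16.8% fell and 18.0% rose in KO1, and 24.7% fell and 24.7% rose in KO2. Among 24 assembly factors, 9 fell (37.5%) and none rose in KO1, and 10 fell (41.7%) and 4 rose (16.7%) in KO2. RBFA, which matures the small subunit's ribosomal RNA, had means of 12.9 ± 0.977 (WT), 11.8 ± 0.146 (KO1) and 6.24 ± 0.312 CPM (KO2; SD, n = 3), a log2 change of -1.05 in KO2. Among 13 translation factors, 2 rose (15.4%) and 3 fell (23.1%) in KO1, and 5 rose (38.5%) and 5 fell (38.5%) in KO2. MTFMT, the formyltransferase of the initiator tRNA, was at 13.8, 16.3 and 5.62 CPM in WT, KO1 and KO2, a log2 change of -1.30 ± 0.086 (SE) in KO2. MRRF, the ribosome recycling factor, was at 51.9, 47.1 and 75.8 CPM and changed by 0.55 ± 0.045 (SE) in KO2. Of 19 tested mitochondrial aminoacyl-tRNA synthetases and related enzymes, 3 rose (15.8%) and 6 fell (31.6%) in KO1. In KO2, 4 rose (21.1%) and 7 fell (36.8%).

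The cytosolic ribosome and complex I give the same measures for other complexes. The shares of all tested genes were 16.8% lower and 18.0% higher in KO1, and 24.7% lower and 24.7% higher in KO2. Of 79 tested cytosolic ribosomal protein genes, 56 fell and none rose in KO1, with a median log2 change of -0.27, and 49 fell and 2 rose in KO2, with a median of -0.21. Of 37 nuclear-encoded complex I genes, 17 fell and none rose in KO1, with a median of -0.195, and 13 fell and 8 rose in KO2, with a median of -0.05. The KO1 median of the mitoribosomal genes, -0.18, lay near those of both lists, and in KO2 it lay nearer to that of complex I.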

How the data were processed

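Total RNA was extracted with a column kit and made into Illumina TruSeq libraries, per the labels' protocols. The deposited tables hold whole-number read counts per gene symbol without normalization. HISAT2 is named per the file headers, and Trim Galore, HISAT2, hg38, GRCm38 and mm10 are named without roles per the submitters' processing notes. Tool versions, counter, annotation release, multi-mapping and strand were not given in the sources used here.

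Counts of all 9 libraries were fitted with edgeR 4.0.16 (R 4.3.3) with filterByExpr, TMM factors, robust quasi-likelihood and 1 mean per group, with Benjamini-Hochberg adjustment over 17759 genes and a threshold of 0.05. CPM are counts divided by the TMM-scaled library total. A standard error is the absolute log2 change divided by the root of its quasi-F statistic. The script was tested on simulated data. Alternatives used DESeq2 1.42.0, limma 3.58.1, other scalings and filters, a replicate block, GC trend removal (lowess span 0.3) and leaving out each library. Positions, lengths and overlaps are from GENCODE 29. Chi-square tests found no duplicate libraries.

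The members and lists were chosen with earlier results of these data known. Named genes reached a mean log2 CPM of 2 and were, per contrast, up to 5 called in each direction with the largest log2 change, the 3 highest and 3 lowest of each subunit per kb in WT, up to 3 of each other list, and MRPS18A, MRPS18B, MRPS18C, MRPS30, MRPS36, MRPL58 and FBXL12.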

Additional observations from a re-analysis of the deposited data

Results flagged for a closer look

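The effects of the clones on a gene were set against each other with the KO1 minus KO2 contrast of edgeR. In it 48.9% of all tested genes differed at an adjusted p under 0.05, and 18 of the 30 tested named members did. In 11 of them the level was lower in KO1 than in KO2: the log2 difference was -0.735 for MRPS17, -0.731 for MRPL44, -0.712 for MRPL22, -0.601 for MRPS16, -0.44 for MRPL32, -0.392 for MRPL50, -0.366 for MRPS18A, -0.337 for MRPL9, -0.295 for MRPL2, -0.245 for MRPL58 and -0.177 for MRPL51. In 7 the level was higher in KO1: 0.648 for MRPL30, 0.614 for MRPS25, 0.487 for MRPL4, 0.377 for MRPS5, 0.358 for MRPL13, 0.225 for MRPL42 and 0.148 for MRPS30. The named members include those picked for the size of this difference, so their number is a description. The call of MRPL51 was lost without KO1 replicate 1 (adjusted p = 0.0589, edgeR), KO1 replicate 3 (0.077) or KO2 replicate 1 (0.0844). That of MRPS30 was lost without KO1 replicate 2 (0.0503, edgeR), KO1 replicate 3 (0.0532), KO2 replicate 2 (0.0625) or KO2 replicate 3 (0.0616), and also with upper-quartile factors (0.0704) and with the GC trend removed together with the replicate block (0.0525).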

How the results depend on the processing

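The direction of the members' changes held under most settings. Leaving out each library in turn gave 28 to 46 members lower and 2 to 4 higher in KO1, 25 to 29 lower and 6 to 9 higher in KO2, 30 to 42 lower and 3 to 6 higher for the mean of both clones, and 20 to 33 lower and 10 to 13 higher in KO1 minus KO2. The 7 higher in KO2 became 12 with upper-quartile factors and 13 with the GC trend removed together with the replicate block, a pair of choices added after seeing the data; the GC trend removed alone gave 10. The 24 lower in KO1 minus KO2 became 36 with the GC trend removed and 37 with the block as well. Shares of all tested genes are not given here for upper-quartile factors, the replicate block or a library left out. Counts of members under those settings therefore have no background beside them. Same-numbered libraries deviated together in no steady way (Pearson correlation from -0.526 to 0.478), and differently numbered ones spanned a like range (-0.489 to 0.536). With 3 libraries in a group, this cannot exclude that the numbers pair the samples. The replicate block alone gave 38 lower in KO1 and 28 lower in KO2. The large minus small median was -0.024 (GC trend removed) and -0.023 (also with the block) in KO1, and -0.047 to -0.004 with a library left out. In KO2 it was 0.076 with a filter of 1 CPM in 3 libraries, 0.05 with the GC trend removed, with or without the block, and 0.073 with subunits by structure, and 0.06 to 0.117 with a library left out. Between the clones it was 0.038, 0.037 and 0.023 under the GC, GC and block, and structure settings, and -0.063 to 0.035 with a library left out. MRPL41 in KO2 reversed to 0.07 and 0.068 under the 2 GC settings. The cause of these shifts was not tested. MRPL51 in KO1 lost its call without KO1 replicate 1 (adjusted p = 0.0738, edgeR) or 3 (0.108) or WT replicate 1 (0.102) or 2 (0.0591), and MRPL30 in KO1 without KO1 replicate 1 (0.0891) or 3 (0.0733) or WT replicate 1 (0.11) or 3 (0.0681). MRPL12, MRPL45, MRPS24 and MRPL53 hold few or no counts, so their values are uncertain. How reads that fit more than 1 gene were counted is not stated, and the cause of the low counts was not tested.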

Other observations

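Transcripts of mitochondrial DNA, the messages and ribosomal RNA that the mitoribosome works with, differed between the clones. MT-RNR1, the small subunit's ribosomal RNA, was at 459, 465 and 461 CPM in WT, while the KO1 libraries had 376, 407 and 406 CPM and the KO2 libraries 702, 667 and 681 CPM, with log2 changes of -0.22 ± 0.04 (SE) and 0.57 ± 0.04 (SE). The 3 groups did not overlap. MT-RNR2, the large subunit's ribosomal RNA, was at 2620, 2640 and 2500 CPM in WT, while the KO1 libraries had 2550, 2980 and 2600 CPM and the KO2 libraries 3580, 3100 and 3330 CPM. Its log2 change was 0.07 ± 0.063 (SE, adjusted p = 0.448, edgeR) in KO1 and 0.37 ± 0.063 (SE) in KO2, where each library lay above those of WT. Of the 13 mitochondrial messenger RNAs, none was called in KO1, with a median log2 change of -0.04. In KO2, 7 rose (53.8%), against 24.7% of all tested genes, with a median of 0.44. MT-CO1, a catalytic subunit of cytochrome oxidase, was at 9430 ± 455, 9430 ± 752 and 12800 ± 1320 CPM (SD, n = 3).

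Of 9 regulators of mitochondrial biogenesis, 3 fell and none rose in KO1 with a median log2 change of -0.146, a share of 33.3% called against 34.8% of all tested genes, and 4 fell and 2 rose in KO2 with a median of -0.115, against 49.4% of all tested genes called. PPARGC1B, a coactivator of mitochondrial gene programmes, had means of 12.8 ± 0.51 (WT), 7.65 ± 0.0759 (KO1) and 18.5 ± 1.07 CPM (KO2; SD, n = 3), with log2 changes of -0.75 and 0.53. PPARGC1A was at 3.58, 4 and 5.85 CPM and rose in KO2 by 0.71, so both named genes are the ones that rose there. Of 10 genes of mitochondrial transcription and RNA stability, 4 fell and none rose in KO1, and 4 fell and 1 rose in KO2. Among them SLIRP, which with LRPPRC stabilises mitochondrial messages, fell in KO1 by -0.62 and in KO2 by -0.17.

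MRPS18B varied widely between replicates. WT libraries had 6.28, 7.83 and 16.8 CPM, KO1 libraries 3.2, 15.8 and 11.9 CPM and KO2 libraries 17.3, 8.89 and 10.1 CPM, so the 3 groups overlapped. MRPL45, counted beside its pseudogenes, held 94, 151 and 48 counts in the WT libraries, with 59, 142 and 29 in those of KO1 and 66, 53 and 148 for KO2.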
